A study of Orbilia oligospora with 12 samples.

Results

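In hyphae of the nematode-trapping fungus Arthrobotrys oligospora (labelled Orbilia oligospora), 4 genes were followed across the transcriptome: the hydrophobin genes AOL_s00006g570 and AOL_s00007g172, AOL_s00006g324, annotated as sporulation-specific protein 5, and AOL_s00081g178, annotated as conidiation-specific protein 13. They were taken by name from the table of 11479 genes, and all 4 of 4 were among the 9355 genes with a level of 1 TPM (transcript abundance per length, scaled to a fixed total per library) or more in 3 or more libraries, the set that was tested. The labels give 4 groups of 3 libraries each: a strain labelled ΔAorlmA at 48 h and at 0 h, and the wild type at 48 h and at 0 h. All groups were hyphae grown on potato dextrose agar, and all, the 0 h groups included, carry the label of a nematode extract that induces traps. The labels call the replicates biological and give nothing on separate cultures, so p-values measure only the spread between these libraries. Whether the mutant is 1 clone or several is not given in the sources used here.

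Hydrophobins are small secreted proteins with paired cysteines that assemble at the boundary between water and air. They coat aerial hyphae and spores and make them water-repellent. The class I type, to which the RodA protein of Aspergillus nidulans belongs, packs into insoluble rodlets on the conidium, and the class II type forms layers that dissolve more readily. Conidia are the asexual spores of filamentous fungi, and in A. nidulans the regulators BrlA, AbaA and WetA act in turn while the conidiophore that bears them is built. Trap-forming fungi such as A. oligospora grow either as plain hyphae with conidia or, near nematodes, with adhesive networks.

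Sequencing gave 48.5 to 61.1 M clean reads a library, from which followed an estimated 12.4 to 15.7 M fragments assigned to genes. AOL_s00078g125 is annotated as transcription factor SMP1 by Swiss-Prot match and as RLM1 by KEGG orthology, and the files do not name the deleted locus. The sample titles of the mutant carry the last digits of this locus tag, but name no gene. If AOL_s00078g125 is the deleted gene, its levels go against the strain label. The TPM values of this gene were 108.6, 96.92 and 87.26 in the ΔAorlmA libraries at 48 h and 72.19, 115.85 and 163.76 at 0 h. In the wild type they were 32.31, 45.1 and 27.94 at 48 h and 38.47, 39.99 and 30.25 at 0 h. AOL_s00078g125 was higher in every library labelled ΔAorlmA, and the growth protocol in the labels names another deletion strain, ΔAosnf1. The gene annotated as SNF1, AOL_s00173g192, was not lost either, at 35.5 TPM at 48 h and 43.1 TPM at 0 h in the libraries labelled ΔAorlmA, against 39.8 and 106 TPM in the wild type (means of 3). Each direction between strains below is therefore one between labels. The first library labelled ΔAorlmA at 48 h had its highest correlation outside its group with a wild-type library at 48 h (r = 0.9652). Its mean correlation with its own group was r = 0.9575. For the first at 0 h the highest was with a 48 h library of the same label (r = 0.9517), and the mean with its own group was r = 0.9396. These set a highest value against a mean, so they do not show that the nearest library lay outside the group. Values without both libraries are given where they change a result. Across all genes tested, the median log2 difference of TPM + 1 between strains was -0.56 at 0 h and -0.11 at 48 h, and that between 48 h and 0 h was 0.14 in the libraries labelled ΔAorlmA and -0.25 in the wild type. With libraries scaled by the median of ratios, genes lower and higher in the ΔAorlmA libraries at 0 h numbered 1033 and 1341, against 3160 and 830 as deposited. That scaling gave 954 higher and 1125 lower genes for 48 h against 0 h in the ΔAorlmA libraries (1212 and 797 as deposited), and 2280 and 2174 in the wild type (1650 and 2688 as deposited).

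At 0 h, both hydrophobin genes and the sporulation-specific gene were lower in the libraries labelled ΔAorlmA than in the wild type, and the conidiation-specific gene was not called. Of the 4 genes, 3 were called lower and 0 higher with limma at a Benjamini-Hochberg adjusted p under 0.05 (0 higher also at an unadjusted p under 0.05), and 33.8% of all genes tested were called lower and 8.87% higher. Their median difference was -2.25 on the log2 scale, against -0.56 over all genes tested. Libraries of the 2 strains did not overlap for any of the 4 genes at 0 h, 3 being lower (42.8% of all genes tested were lower without overlap) and 1 higher (11.0%). At 48 h, 1 gene was lower (14.7% of all genes tested were called lower) and 1 was higher (9.2% were called higher), with a median over the 4 genes of -0.91. These were also the 2 genes without overlap between strains at 48 h, and 29.5% of all genes tested were lower and 18.1% higher without overlap. Both genes called at 48 h, AOL_s00007g172 and AOL_s00081g178, met the filter only through the libraries in which they were the higher. So did AOL_s00007g172 among the 3 genes called lower at 0 h, and these calls are a description. With 4 genes and lower calls this common among all genes, the counts are a description of these genes.

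Between 48 h and 0 h, 2 of the 4 genes rose in the libraries labelled ΔAorlmA (13.0% of all genes tested were called higher and 8.52% lower), and 0 fell, also at an unadjusted p under 0.05. The same 2 genes had no overlap between the times, and 18.4% of all genes tested were higher at 48 h without overlap. Of these 2, AOL_s00081g178 met the filter only through the 48 h libraries labelled ΔAorlmA, so its part in these counts is a description. In the wild type, limma called 0 of the 4 in either direction, also at an unadjusted p under 0.05, while 17.6% of all genes tested were called higher and 28.7% lower. There 2 of the 4 were lower at 48 h without overlap, as were 37.9% of all genes tested. The difference between the time responses of the 2 strains was called for 0 of the 4 genes (4.43% of all genes tested), and 1 passed an unadjusted p under 0.05. The strain comparisons and the time comparisons share groups, so their values are given side by side. An exact permutation test of 3 libraries against 3 cannot go below p = 0.1, and it gave that value wherever groups did not overlap.

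**Figure D1:**
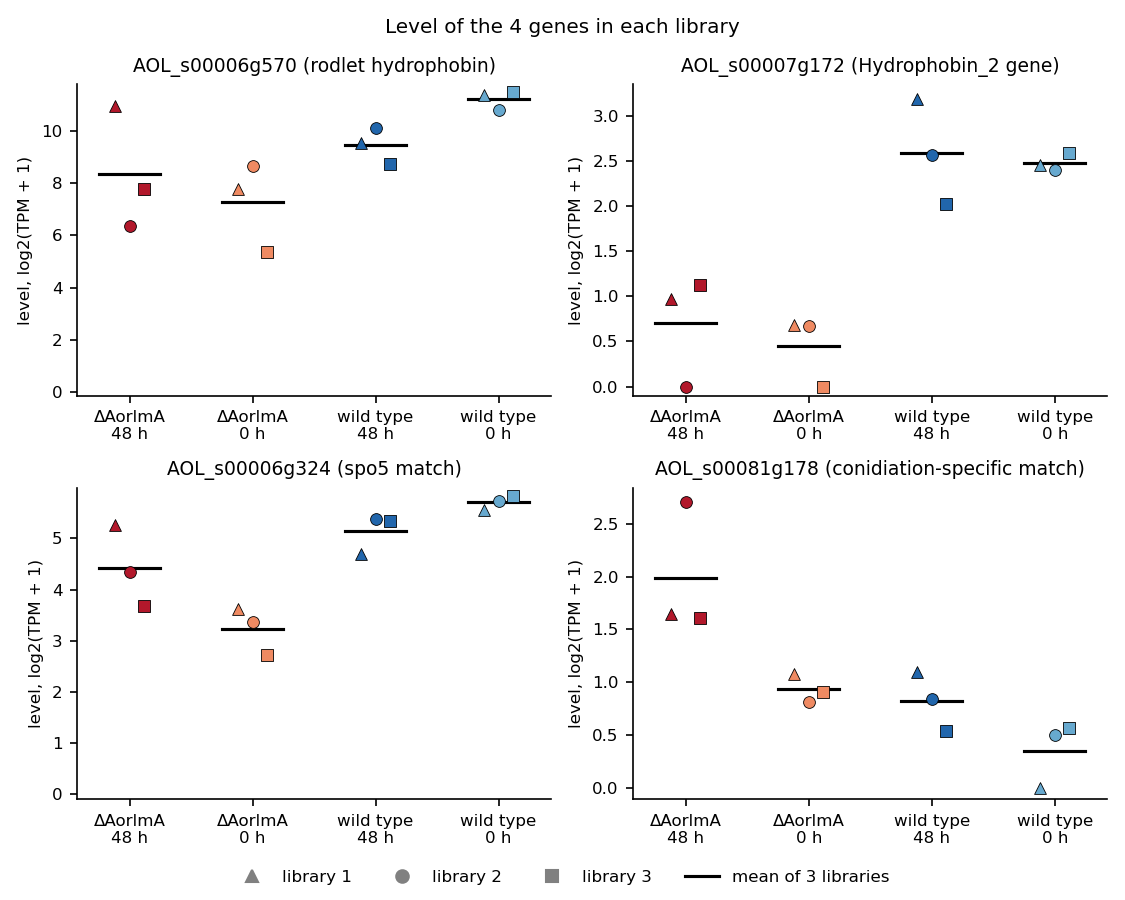
Level of each gene in every library on the log2(TPM + 1) scale, by group, with the mean of 3 libraries as a bar and the marker shape giving the library number. AOL_s00007g172 lies lower in every library labelled ΔAorlmA than in every wild-type library, while the first ΔAorlmA library at 48 h (triangle) lies at 1990.16 TPM for AOL_s00006g570, above the 3 wild-type libraries at that time.

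AOL_s00006g570 (429 bases of coding length) carries the hydrophobin domain of the Pfam database and its closest Swiss-Prot entry is the rodlet protein of Aspergillus nidulans (under its teleomorph name Emericella nidulans), the class I hydrophobin of the spore coat. It had 219.17, 405.8 and 40.17 TPM in the ΔAorlmA-labelled libraries at 0 h, against 2670.47, 1793.49 and 2883.02 TPM in the wild type at 0 h. Every ΔAorlmA library was far below every wild-type one, and the ΔAorlmA libraries spread over a wide range. The mean fell to 222 ± 183 TPM, against 2449 ± 578 TPM in the wild type (SD, n = 3 each), an 11.0-fold lower mean. The log2 fold change was -3.96 (SE 0.99, adjusted p = 0.00868 with limma) and -3.40 relative to the median of all genes tested. By mean level this gene was number 788 of 11479 in the libraries labelled ΔAorlmA at 0 h and number 41 in the wild type. Fewer cells that express a gene and less of its RNA per cell cannot be told apart in RNA from whole hyphal cultures.

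At 48 h the rodlet gene had 1990.16, 82.3 and 216.94 TPM in the libraries labelled ΔAorlmA, against 740.37, 1115 and 433.66 TPM in the wild type. The groups overlapped: the first ΔAorlmA library was above all wild-type libraries, and the others were below them. The means were 763 ± 1065 TPM in the libraries labelled ΔAorlmA and 763 ± 341 TPM in the wild type (SD, n = 3 each), and the log2 fold change of -1.10 (SE 0.99) was not called (adjusted p = 0.429 with limma). One library decides this value: without the first ΔAorlmA library at 48 h the log2 fold change was -2.40 (adjusted p = 0.0355), and without the first ΔAorlmA libraries of both times it was -2.40 (adjusted p = 0.0353). Among the ΔAorlmA libraries at 48 h, the first also had the highest correlation with a wild-type library, and its part in the result was not tested further.

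The 48 h wild-type libraries all lay below the 0 h ones for the rodlet gene, with a ratio of means of 0.312, but the log2 fold change of -1.75 (SE 0.99) did not pass (adjusted p = 0.159 with limma). Fitted on the wild-type libraries alone, without the spread of the ΔAorlmA libraries, the same difference had an adjusted p of 0.00507. In the libraries labelled ΔAorlmA the difference between 48 h and 0 h was 1.10 (SE 0.99, adjusted p = 0.434), with overlapping groups, and it was -0.20 (adjusted p = 0.877) without the first 48 h library. The difference between the 2 time responses was 2.85 (SE 1.40, adjusted p = 0.226 with limma).

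AOL_s00007g172 (324 bases) carries the Hydrophobin_2 domain, which marks class II hydrophobins, and is a low-abundance gene, which ranked at number 7127 to 9424 of 11479 by group mean. It had 0.6, 0.59 and 0 TPM in the ΔAorlmA-labelled libraries at 0 h, against 4.48, 4.28 and 5.02 TPM in the wild type. At 48 h it had 0.96, 0 and 1.19 TPM in the libraries labelled ΔAorlmA, against 8.13, 4.91 and 3.06 TPM in the wild type. All 6 ΔAorlmA libraries were lower than all 6 wild-type libraries. Of the ΔAorlmA libraries only 1 reached 1 TPM, at 1.19 TPM. The gene therefore met the filter only through the wild type, where it is the higher, and its strain calls are a description. The log2 fold changes of TPM + 1 were -2.03 (SE 0.36, adjusted p = 0.00229 with limma) at 0 h and -1.89 (SE 0.36, adjusted p = 0.00716) at 48 h. Since 1 TPM is added to values this low, they understate the ratio.

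Whole fragments could be estimated for this gene, because low values fell on the steps of single fragments. The ΔAorlmA libraries held 1, 1 and 0 fragments at 0 h and 2, 0 and 2 at 48 h, against 8, 9 and 11 fragments in the wild type at 0 h and 12, 11 and 7 at 48 h. Summed over libraries and corrected for depth, the ratio of the strains was 0.0717 at 0 h (exact 95% interval for counting error only 0.00827 to 0.284) and 0.131 at 48 h (0.0336 to 0.372). Neither interval reached 1, but both leave out the spread between libraries and so are no test of the strain difference. Between 48 h and 0 h the ratio was 1.92 in the libraries labelled ΔAorlmA (0.275 to 21.2), where counts of 4 and 2 fragments allow almost any change, and 1.05 in the wild type (0.605 to 1.82). The log2 differences between 48 h and 0 h were 0.25 (SE 0.36, adjusted p = 0.642) and 0.11 (SE 0.36, adjusted p = 0.821 with limma), neither called.

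**Figure D2:**
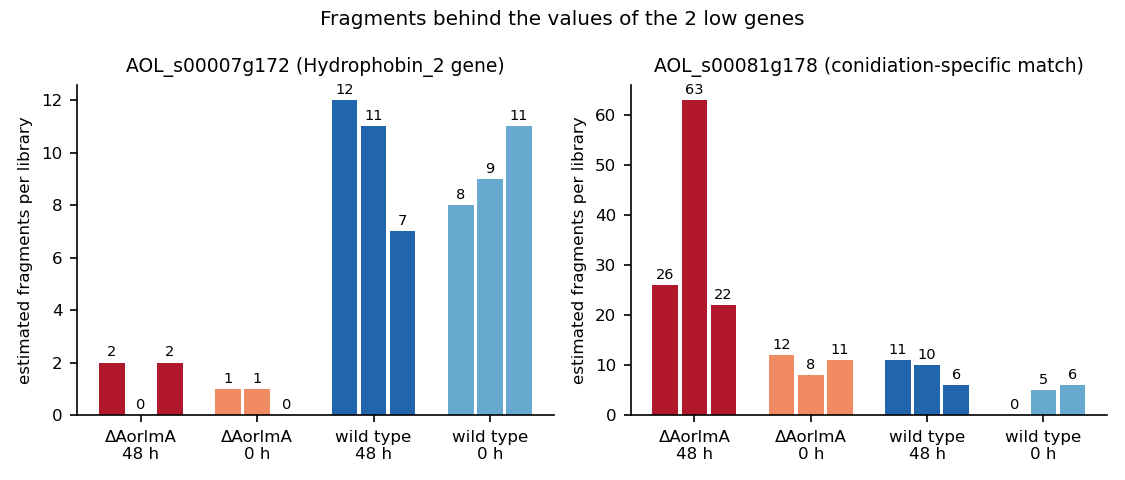
Estimated fragments per library behind the values of the low genes AOL_s00007g172 and AOL_s00081g178, as bars from 0 with the number above each. The class II hydrophobin gene has at most 2 fragments in a library labelled ΔAorlmA and at least 7 in a wild-type library, and the conidiation-specific gene has 22 to 63 in the ΔAorlmA libraries at 48 h.

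Another gene with a hydrophobin domain, AOL_s00075g89, was listed at 0 in 9 libraries and had 0.41, 0.25 and 0.12 TPM in the wild-type libraries at 0 h. It was not tested and is named after its values were seen. Among the genes with hydrophobin domains, the rodlet gene therefore held by far the highest level in each group.

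AOL_s00006g324 (1392 bases) carries an RNA recognition motif, and its closest Swiss-Prot entry is sporulation-specific protein 5 of Schizosaccharomyces pombe, an RNA-binding protein that acts in meiosis and spore formation there. It had 11.32, 9.29 and 5.61 TPM in the ΔAorlmA-labelled libraries at 0 h, against 45.91, 52.22 and 55.96 TPM in the wild type. The groups lay far apart, and each had a narrow range. The mean was 8.74 ± 2.89 TPM, against 51.4 ± 5.08 TPM in the wild type (SD, n = 3 each), and the log2 fold change was -2.47 (SE 0.39, adjusted p = 0.00139 with limma). At 48 h it had 37.4, 19.29 and 11.86 TPM in the libraries labelled ΔAorlmA, against 24.97, 40.76 and 39.47 TPM in the wild type. The groups overlapped through the first ΔAorlmA library, as they did for the rodlet gene.

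The strain difference of AOL_s00006g324 at 48 h was -0.71 (SE 0.39, adjusted p = 0.192 with limma), and it was -1.13 (adjusted p = 0.0301) without that first library. Between 48 h and 0 h the gene rose by 1.19 in the libraries labelled ΔAorlmA (SE 0.39, adjusted p = 0.0458), where all 48 h libraries were above the 0 h ones. In the wild type all 48 h libraries were below the 0 h ones, with a log2 difference of -0.57 (SE 0.39, adjusted p = 0.250) that did not pass. The difference between the responses was 1.76 (SE 0.55) and did not pass either (adjusted p = 0.0793 with limma). The rise in the ΔAorlmA libraries was close to the threshold: it was lost in 10 of the 12 fits that left out 1 library, with values of 0.78 to 1.57 over all 12. It was also lost with median-of-ratios scaling (1.05, adjusted p = 0.0577) and when only the ΔAorlmA libraries were fitted (adjusted p = 0.165).

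AOL_s00081g178 (864 bases) has as its closest Swiss-Prot entry conidiation-specific protein 13 of Neurospora crassa, the product of a gene expressed mainly while that fungus makes conidia, and carries no Pfam domain in the annotation. Its highest group mean was in the libraries labelled ΔAorlmA at 48 h, while those of the other genes were in the wild type. It had 2.12, 5.5 and 2.05 TPM in the ΔAorlmA-labelled libraries at 48 h and 1.12, 0.76 and 0.88 TPM in those at 0 h, against 1.14, 0.79 and 0.46 TPM in wild-type libraries at 48 h and 0, 0.42 and 0.48 TPM at 0 h. The 3 ΔAorlmA libraries at 48 h were above every other library, and the second of them was the highest of all. Outside this group, 1 TPM was reached only at 1.12 TPM (ΔAorlmA at 0 h) and 1.14 TPM (wild type at 48 h). The gene therefore met the filter of 3 libraries only through the group in which it was then called higher, and those calls are a description. At 48 h the strain difference was 1.16 on the log2 scale (SE 0.31, adjusted p = 0.0220 with limma), and without the second ΔAorlmA library at 48 h it was 0.80 (adjusted p = 0.0836). It was also lost without wild-type library 2 at 48 h (1.16, adjusted p = 0.0624) or library 3 (1.01, adjusted p = 0.0835), and with a pseudocount of 0.1 TPM (1.81, adjusted p = 0.0700).

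At 0 h the groups of AOL_s00081g178 did not overlap, but the log2 difference of 0.58 (SE 0.31) was not called (adjusted p = 0.144 with limma). The authors' deposited table does call this gene higher in the mutant at 0 h. The ratio of fragments was 2.83 at 0 h (31 against 11 fragments in 3 libraries each, exact 95% interval for counting error 1.38 to 6.24) and 4.04 at 48 h (111 against 27, 2.64 to 6.41). The wild-type libraries at 0 h held 0, 5 and 6 fragments, so the fitted fold change at that time rests on few molecules. Between 48 h and 0 h the gene rose by 1.05 in the libraries labelled ΔAorlmA (SE 0.31, adjusted p = 0.0325 with limma) and differed by 0.47 in the wild type (SE 0.31, adjusted p = 0.228). The rise was lost without the second ΔAorlmA library at 48 h (0.69, adjusted p = 0.109), or without ΔAorlmA library 2 (0.99, adjusted p = 0.103) or library 3 (1.03, adjusted p = 0.0777) at 0 h.

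The table holds 2 further genes with the same Swiss-Prot match. AOL_s00079g472 (885 bases) had 506.59, 218.11 and 77.1 TPM in the ΔAorlmA-labelled libraries at 0 h, against 44.93, 36.41 and 9.98 TPM in the wild type. At 48 h it had 30.29, 84.86 and 53.86 TPM in the libraries labelled ΔAorlmA, against 22.12, 2.83 and 8.33 TPM in the wild type. It was higher in every ΔAorlmA library than in every wild-type library of the same time, with log2 differences of 2.95 (SE 0.77, adjusted p = 0.0106 with limma) at 0 h and 2.49 (SE 0.77, adjusted p = 0.0345) at 48 h. With time it differed by -1.96 in the libraries labelled ΔAorlmA (SE 0.77, adjusted p = 0.0835), where AOL_s00081g178 rose. The other match, AOL_s00007g374 (885 bases), stayed at or below 0.43 TPM, was not tested and is named after its values were seen. Whether reads were shared between these genes was not tested.

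**Figure D3:**
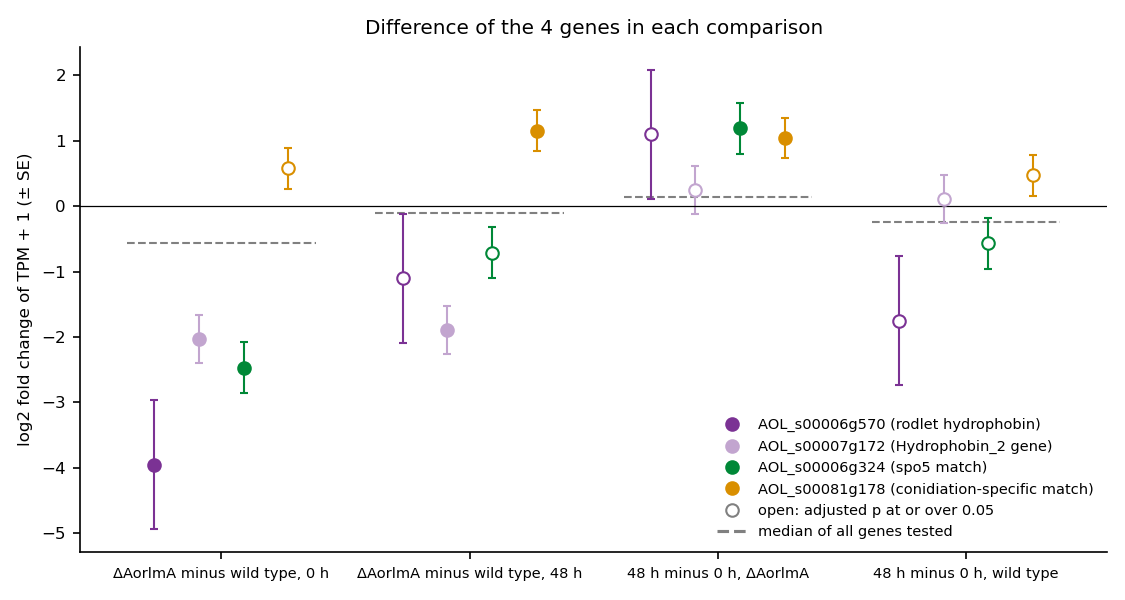
Log2 fold change of TPM + 1 (± SE) of the 4 genes in the strain comparisons at 0 h and 48 h and in the time comparisons of each strain, with filled points for an adjusted p under 0.05 and a dashed line at the median of all genes tested. At 0 h, 3 genes lie below the median, from -2.03 to -3.96, and AOL_s00081g178 lies above it in every comparison.

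The authors' deposited table gives calls for the same comparisons. Besides the call at 0 h named above, it differs from the limma calls for the rodlet gene, which the authors' deposited table calls lower at 48 h than at 0 h in the wild type. For the other comparisons of the 4 genes both sources gave the same call. The direction differed for the rodlet gene between strains at 48 h, uncalled in both: the authors' deposited table has it higher in the ΔAorlmA libraries, and limma gave -1.10. For AOL_s00079g472 the authors' deposited table calls the lower level at 48 h in the libraries labelled ΔAorlmA, which limma did not. The deposited calls come without fold changes or p-values, so the difference could not be traced.

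The levels of the 4 genes were compared across all 12 libraries by the root mean square (RMS) difference of log2(TPM + 1), each gene centred on its own mean. AOL_s00007g172 and AOL_s00006g324 were the most alike pair (0.73), and the rodlet gene and AOL_s00081g178 the least alike (2.33). The rodlet gene was closer to AOL_s00006g324 (1.18) than to the other hydrophobin gene (1.29). Each gene's nearest annotated genes, among 6158 or 6159 with a mean of at least 5 TPM, were found in the same way. Since these libraries chose the nearest genes, their like differences between groups are a description that follows from the choice, with no test. The measure says nothing of shared function, and weighs both the strain and the first ΔAorlmA libraries.

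The 3 nearest to the rodlet gene were AOL_s00210g187, annotated as elongation factor 2 (RMS difference 0.81), AOL_s00080g319, a peptidase of the S41 family (0.91), and AOL_s00097g514 (0.98). The Swiss-Prot match of the last is brlA, the regulator that starts conidiophore development in A. nidulans. Whether AOL_s00097g514 is the brlA of this fungus was not tested. It had 7.01, 11.24 and 0.89 TPM in the ΔAorlmA-labelled libraries at 0 h, against 70.04, 45.25 and 59.87 TPM in the wild type, a log2 difference of -3.36. All its ΔAorlmA libraries at 0 h were below the wild-type ones. At 48 h it had 74.32, 18.52 and 11.66 TPM in the libraries labelled ΔAorlmA, against 46.37, 58.64 and 58.88 TPM in the wild type. Its first ΔAorlmA library at 48 h was again the highest, and the groups overlapped (log2 difference -1.06). With time it differed by 2.22 in the libraries labelled ΔAorlmA and by -0.08 in the wild type.

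The class II hydrophobin gene was nearest to AOL_s00006g348, a match to DNA polymerase delta subunit 3 (0.35), AOL_s00078g319, an ALG6/ALG8-type glucosyltransferase of protein glycosylation (0.37), and AOL_s00043g631, with the domain of centromere protein H (0.37). As chosen, these 3 genes had log2 differences between strains from -1.49 to -2.01 at 0 h and from -1.69 to -1.94 at 48 h. The sporulation-specific gene was nearest to AOL_s00215g756, with a domain of unknown function (0.35), AOL_s00110g19, with a helix-loop-helix DNA-binding domain (0.38), and AOL_s00079g123, a match to DASH complex subunit spc19 of the S. pombe spindle (0.39). The conidiation-specific gene was nearest to AOL_s00004g555, a match to the inositol phosphorylceramide synthase subunit kei1 (0.26), AOL_s00007g542, an adenylate kinase (0.29), and AOL_s00007g562, with a domain of unknown function (0.29).

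**Figure D4:**
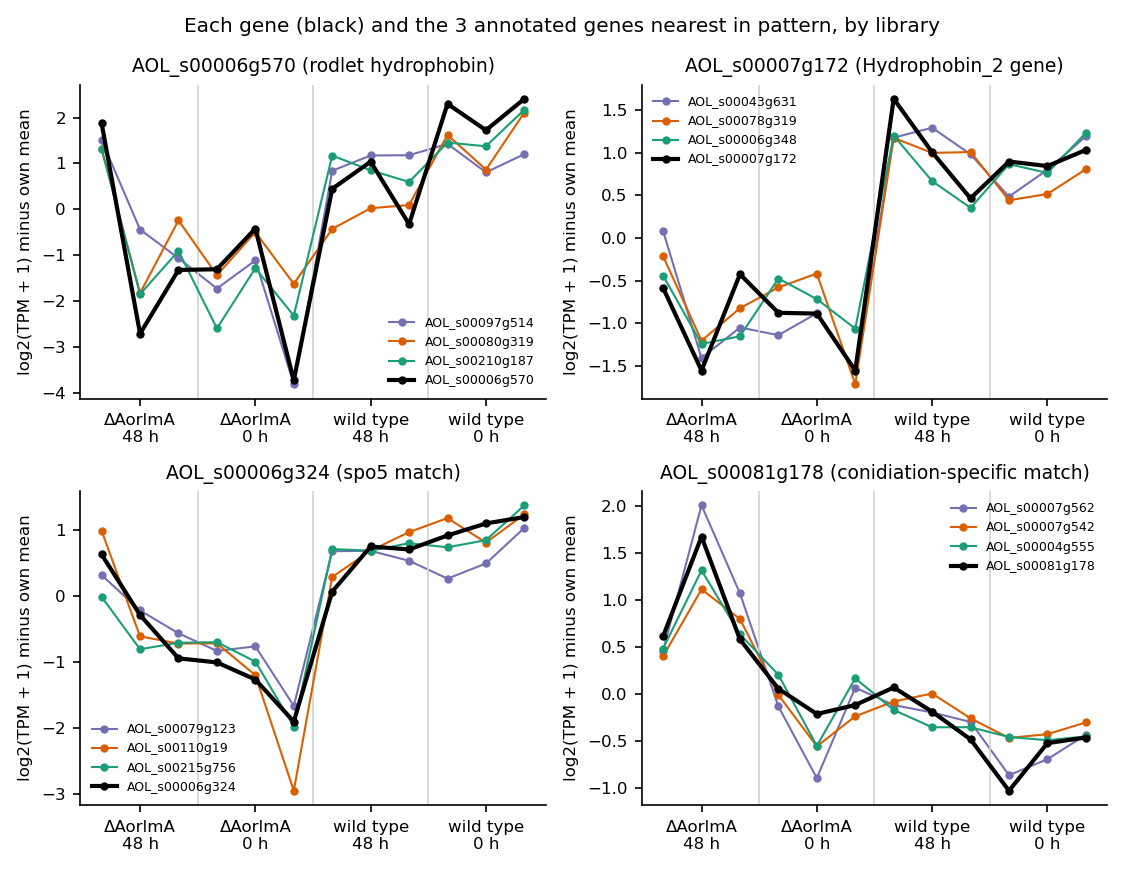
Log2(TPM + 1) minus the gene's own mean in each of the 12 libraries, in the order of the 4 groups, for each gene (black) and the 3 annotated genes nearest to it by RMS difference. The black line of the rodlet gene is high in the first ΔAorlmA library at 48 h and that of the conidiation-specific gene in the second; the coloured lines follow because they were chosen for closeness over these libraries.

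The 4 genes were set beside 4 lists of related genes, matched by words in the annotation and without the 4 genes themselves. Of 30 tested genes matched by conidiation and spore words, 14 fell and 2 rose in the libraries labelled ΔAorlmA at 0 h, where 33.8% of all genes tested fell and 8.87% rose. Many of these matches are methyltransferases annotated as secondary metabolism regulator LAE1 or laeA, and some are protein phosphatases. The counts and medians of this list are therefore not of conidiation genes alone. The list median was -0.95, against -0.56 over all genes tested, and with median-of-ratios scaling 7 fell and 4 rose (11.0% and 14.3% of all genes tested). Matches to the conidiation regulators abaA (AOL_s00080g63, -1.30, adjusted p = 0.00927) and wetA (AOL_s00173g221, -1.17, adjusted p = 0.0114 with limma) were among those that fell. They are named after their values were seen, and their calls under median-of-ratios scaling are not given here. Other regulator matches of the list had higher means in the libraries labelled ΔAorlmA at 0 h, such as flbA (141 against 71.6 TPM in the wild type) and veA (165 against 138 TPM). The libraries of the 2 strains overlapped for veA, at 138.97, 195.7 and 160.03 against 207.88, 132.66 and 74.28 TPM, and not for flbA. Test results of flbA and veA at 0 h are not given here. The list member with the lowest adjusted p that fell was AOL_s00076g478, a match to the secondary metabolism regulator LAE1 (-1.34, adjusted p = 0.00260). At 48 h, 2 of the 30 fell and 2 rose (14.7% and 9.2% of all genes tested), with a median of -0.06 (-0.11 over all genes tested). Without the first ΔAorlmA libraries 7 fell and 4 rose, where 27.4% and 15.5% of all genes tested did. The match to the developmental regulator flbA (AOL_s00215g516), a regulator of G protein signalling, rose by 1.51 at 48 h (adjusted p = 0.0146 with limma). The match to fluG (AOL_s00043g361), a gene of the signal that starts conidiation in A. nidulans, fell by 1.79 at that time (adjusted p = 0.0236 with limma). Summed TPM of the list ran from 1069 to 1812 in the libraries labelled ΔAorlmA at 0 h and from 1421 to 1926 in the wild type, with at most 1 of the 31 matched genes at 0 in any of these libraries. Of 49 genes matched by housekeeping words, 23 fell and 1 rose at 0 h (33.8% and 8.87% of all genes tested), and 5 fell and 1 rose with median-of-ratios scaling (11.0% and 14.3%).

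Of the 17 other surface proteins tested, 3 rose and 3 fell in the libraries labelled ΔAorlmA at 0 h (8.87% and 33.8% of all genes tested), with a median of 0.22. With median-of-ratios scaling 5 rose and 2 fell (14.3% and 11.0%), with a median of 0.75. Without the first ΔAorlmA libraries 3 rose and 5 fell (9.63% and 44.0%), and the median turned to -0.33. The cerato-platanin AOL_s00083g444, a small secreted protein of the fungal wall, was the gene with the lowest adjusted p that rose at 48 h. It had 6400.79, 10741.4 and 6478.9 TPM in the ΔAorlmA-labelled libraries at 48 h, against 924.75, 2921.17 and 807.9 TPM in the wild type. Every ΔAorlmA library was above every wild-type one, and the log2 fold change was 2.56 (SE 0.60, adjusted p = 0.0133 with limma). At 0 h the CFEM-domain gene AOL_s00079g357 rose by 2.95 (adjusted p = 0.00362) and the CFEM-domain gene AOL_s00215g752 fell by 1.99 (adjusted p = 0.000869); CFEM is a cysteine-rich domain of fungal surface proteins. The cerato-platanin was higher at 0 h as well (2.26, SE 0.60, adjusted p = 0.0114).

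Of 17 spore wall and pigment genes tested, 6 rose and 4 fell at 0 h in the libraries labelled ΔAorlmA (8.87% and 33.8% of all genes tested), with a median of 0.02. With median-of-ratios scaling 5 rose and 2 fell (14.3% and 11.0%), with a median of 0.54. Without the first ΔAorlmA libraries 5 of 16 rose and 4 fell (9.63% and 44.0%), with a median of -0.60. The tyrosinase AOL_s00083g37, from an enzyme family that makes melanin precursors, rose by 2.80 (adjusted p = 0.00115 with limma). Of 7 genes matched by trehalose words, 3 fell and 0 rose at 0 h (33.8% and 8.87% of all genes tested), and with median-of-ratios scaling 1 fell and 0 rose (11.0% and 14.3%). The one with the lowest adjusted p that fell at 0 h, AOL_s00076g318, is annotated as a probable mannosyl-oligosaccharide glucosidase, so the count is not of trehalose genes alone. Trehalose is a storage and stress sugar of spores. Between 48 h and 0 h in the wild type, 5 of the 7 fell (28.7% of all genes tested), with a median of -2.30 against -0.25 over all genes tested. Trehalose phosphorylase (AOL_s00097g268) fell by 4.23 in the wild type (adjusted p = 1.36e-05) and by 2.38 in the libraries labelled ΔAorlmA (adjusted p = 0.00146 with limma). Over the same times in the wild type, 14 of the 30 genes on the conidiation list fell and 2 rose (28.7% and 17.6% of all genes tested), with a median of -0.81. With median-of-ratios scaling 10 fell and 2 rose (23.2% and 24.4%). The sporulation-specific protein 71 match AOL_s00109g105 rose with time in both, by 1.32 in the libraries labelled ΔAorlmA (adjusted p = 0.0261) and by 1.25 in the wild type (adjusted p = 0.0146).

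**Figure D5:**
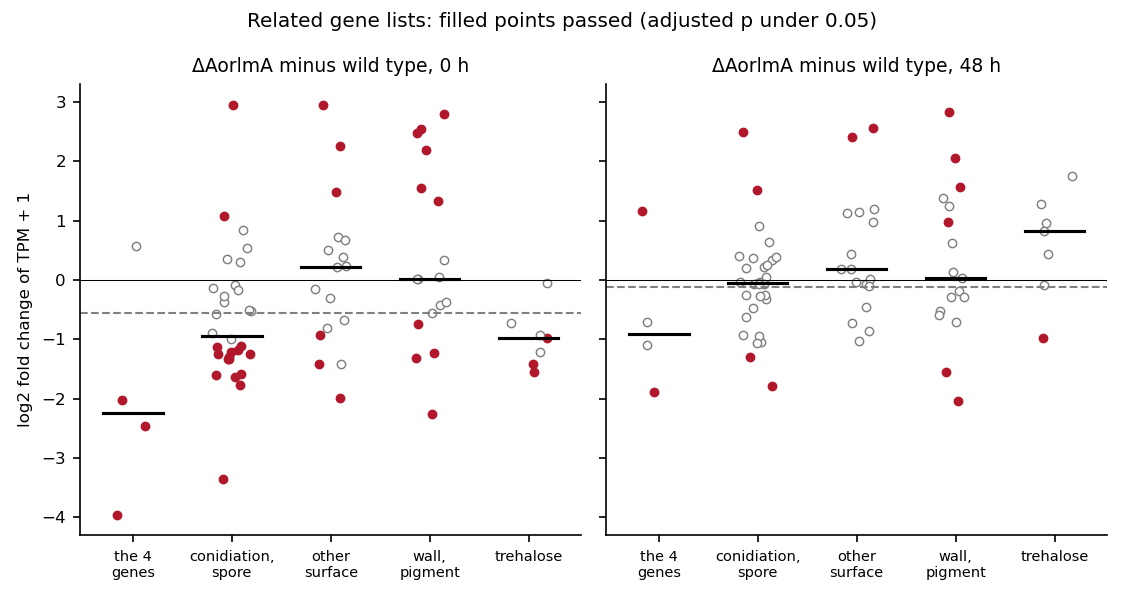
Log2 fold change of TPM + 1 between the libraries labelled ΔAorlmA and the wild type, at 0 h (left) and 48 h (right), for the 4 genes and 4 lists of related genes. Filled points passed the test, the bar is the list median and the dashed line the median of all genes tested. The conidiation list has its bar at -0.95 at 0 h and at -0.06 at 48 h.

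The genes beside each of the 4 in the RefSeq order of locus tags were also read; they were described after their values were known. Next to the rodlet gene, AOL_s00006g571, with a GMC oxidoreductase domain, averaged 8.02 TPM in the ΔAorlmA-labelled libraries at 0 h, against 119 TPM in the wild type, a log2 difference of -3.88 (adjusted p = 0.00260 with limma). It also fell by 4.29 between 48 h and 0 h in the wild type (adjusted p = 0.000524), and the genes on the other side, AOL_s00006g569 and AOL_s00006g568, fell by 2.25 and 2.56 in the ΔAorlmA libraries at 0 h (adjusted p = 0.00566 and 0.00290). The next gene beyond it, AOL_s00006g572, rose by 1.13 (adjusted p = 0.0216). Beside the class II hydrophobin gene, AOL_s00007g171, which has no annotation, rose by 2.77 at 0 h in the libraries labelled ΔAorlmA (adjusted p = 0.00307), while AOL_s00007g172 fell. The other neighbours tested there fell, AOL_s00007g170 by 1.46 (adjusted p = 0.00173) and AOL_s00007g174 by 0.88 (adjusted p = 0.0390). The genes on both sides of AOL_s00006g324, the kinase rio2 match AOL_s00006g323 (-0.05, adjusted p = 0.912) and the cytochrome P450 reductase match AOL_s00006g325 (-0.72, adjusted p = 0.0408), differed by less than it. The genes beyond these, AOL_s00006g322 (-0.57, adjusted p = 0.0790) and AOL_s00006g326 (-0.41, adjusted p = 0.274 with limma), were not called. Near AOL_s00081g178, AOL_s00081g176 fell by 0.73 (adjusted p = 0.0457), and AOL_s00081g177 (0.23, adjusted p = 0.634) and AOL_s00081g180 (-1.05, adjusted p = 0.421 with limma) were not called. The neighbours AOL_s00007g173 and AOL_s00081g179 were not tested.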

How the data were processed

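RNA from 12 hyphal libraries was sequenced with standard Illumina libraries, per the labels' protocols. The authors deposited expression as TPM (2 decimals) and as FPKM with annotation; within a library FPKM was TPM times a constant. They also deposited their own calls and read statistics, including read counts and the percent of bases of quality 30. For the aligner, quantifier and build, no name is given in the sources used here. Group-mean columns (8) were left out, and the table named for raw counts holds correlations, so no count test was run. All 11479 gene IDs matched RefSeq locus tags. Lengths are coding lengths.

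Groups came from the genotype and time labels. The fit used log2(TPM + 1) in limma 3.58.1 (R 4.3.3), with 4 group means over all 12 libraries, a variance trend and Benjamini-Hochberg adjustment over the 9355 genes that reached 1 TPM in 3 or more libraries; the fit was tested on simulated data. A call is an adjusted p under 0.05. Fragments were estimated from the FPKM steps: 100% of 303 to 387 low values per library were within 0.15 of a whole number, and intervals cover counting error only. Named genes are the 4 genes, the called list gene with the lowest adjusted p per direction and comparison (every tested gene for lists of up to 6), and the 3 nearest annotated genes; some of the list genes picked by this rule are left out. The list words also let in unrelated genes, and the housekeeping list was used only as a check. The members and lists were chosen with earlier results of these data known. Alternatives tried were other pseudocounts, filters, scalings, a replicate block, no variance trend, fits on the compared groups, and leaving libraries out.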

Additional observations from a re-analysis of the deposited data

Results flagged for a closer look

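The sporulation-specific gene AOL_s00006g324 differed with time in opposite directions in the 2 strains: all 48 h libraries labelled ΔAorlmA were above those at 0 h, and all wild-type libraries at 48 h were below those at 0 h. The rise in the ΔAorlmA libraries was called, but not in 10 of 12 fits that left out 1 library, and the wild-type difference (-0.57, adjusted p = 0.250) was not called. Over all genes tested the median difference with time was 0.14 in the ΔAorlmA libraries and -0.25 in the wild type. Relative to these medians the gene differed by 1.05 and -0.32. In the wild type 37.9% of all genes tested were lower at 48 h without overlap, and in the ΔAorlmA libraries 18.4% were higher. The difference between the log2 changes was 1.76 (SE 0.55), and the interaction term that tests it did not pass (adjusted p = 0.0793 with limma). It passed in 1 alternative, without the first ΔAorlmA libraries (1.54, adjusted p = 0.0445). It did not pass with median-of-ratios scaling (1.37, adjusted p = 0.144), with a replicate block (adjusted p = 0.1003), or in any of the 12 fits that left out 1 library (adjusted p from 0.0606 to 0.158). No explanation was tested.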

How the results depend on the processing

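Most values kept direction and call. The strain differences at 0 h of AOL_s00006g570, AOL_s00007g172 and AOL_s00006g324 and that of AOL_s00007g172 at 48 h kept both under every alternative that gave a value (the filter at 5 TPM gave none for AOL_s00007g172 and AOL_s00081g178, and the difference between responses was not refitted on fewer groups). For AOL_s00007g172 this is a description, since it met the filter only through the wild type and rests on few fragments. Over all combinations of gene, comparison and setting, 389 kept direction and call, 23 lost the call, 7 gained it and 7 turned the sign. In many of them the estimate could not move, such as a wild-type time difference when a ΔAorlmA library was left out. Differences that were never called also count among the 389, which is therefore no measure of stability. Depth limits AOL_s00007g172 and AOL_s00081g178. The cause of the changes below was not tested.

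Fitting only the compared groups gave -1.75 (adjusted p = 0.00507, gained) for AOL_s00006g570 over time in the wild type and left 1.19 for AOL_s00006g324 (adjusted p = 0.165) and 1.05 for AOL_s00081g178 (adjusted p = 0.115) uncalled over time in the ΔAorlmA libraries. That time difference of AOL_s00006g324 was also lost with no filter (1.19, adjusted p = 0.0600) and median-of-ratios scaling (1.05, adjusted p = 0.0577). A pseudocount of 0.1 TPM lost AOL_s00081g178 over time in the ΔAorlmA libraries (1.57, adjusted p = 0.115) and between strains at 48 h (1.81, adjusted p = 0.0700), and quantile normalization gained it over time in the wild type (0.88, adjusted p = 0.0420). The difference between responses of AOL_s00007g172 turned to -0.071 with median-of-ratios scaling and to -0.51 with quantile normalization. Without the first ΔAorlmA libraries, calls were gained for AOL_s00006g570 (-2.40, adjusted p = 0.0353) and AOL_s00006g324 (-1.13, adjusted p = 0.0155) between strains at 48 h, and for the difference between responses of AOL_s00006g324 (1.54, adjusted p = 0.0445).

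Leaving out 1 library at a time gave these ranges. Over time in the ΔAorlmA libraries, AOL_s00006g570 ran from -0.20 to 2.09, AOL_s00006g324 from 0.78 to 1.57 and AOL_s00081g178 from 0.69 to 1.23. Between strains at 48 h, AOL_s00006g570 ran from -2.40 to -0.11, AOL_s00006g324 from -1.13 to -0.34 and AOL_s00081g178 from 0.80 to 1.34. AOL_s00007g172 ran from -0.19 to 0.40 over time in the wild type and from -0.14 to 0.49 for the difference between responses, with the sign turned at -0.07, -0.08 and -0.14.

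Genes called between strains at 0 h numbered 3990, and 2374 with median-of-ratios scaling (2000 to 4423 leaving out 1 library). At 48 h they numbered 2234, and 3989 without the first ΔAorlmA libraries (484 to 3086). Over time in the ΔAorlmA libraries they numbered 2009, 438 on the compared groups alone and 3406 without the first libraries (726 to 3443), and over time in the wild type 4338 (3177 to 4970). For the difference between responses they numbered 414, 260 with a pseudocount of 0.1 TPM and 1343 without the first libraries (17 to 874).

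Same-numbered libraries did not deviate together (correlations of -0.316 to 0.188), so the replicate number was not treated as a pairing. A replicate block gave 3789, 2055, 1766, 4241 and 348 genes called in the order of comparisons above; it ended the call of AOL_s00006g324 over time in the ΔAorlmA libraries (1.19, adjusted p = 0.0578) and no other call of the 4 genes.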
